A study of Mus musculus with 17 samples.

Results

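Slits, Robos, semaphorins, neuropilins and plexins are guidance genes, which were named for steering axons and migrating cells. Of the 55421 genes in the deposited count table, 10 were taken by their symbols for this account: the ligands Slit2, Slit3, Sema3a, Sema3c and Sema4d, the receptors Robo1, Robo2 and Plxna1, and the co-receptors Nrp1 and Nrp2. Each symbol had 1 row in the table. In 4 bleomycin cultures from mice that kept Ephb4, Slit2 was higher than in any PBS culture from such mice. That was so for 5.72% of all genes tested. Slit2, Robo1, Robo2 and Sema3c were lower in every bleomycin culture from mice treated to delete Ephb4 than in those 4. So were 12.2% of all genes tested, among which Robo2 was too scarce to be counted. No difference in a guidance gene passed the test after adjustment over all genes, and the 5 cultures with the most Slit2 and Robo1 were also those with the most fibroblast marker RNA.

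Slits are secreted proteins that bind Robo receptors and were first known for repelling axons at the midline of the nervous system. Secreted class 3 semaphorins bind neuropilins, which lack a signalling domain of their own and pass the signal through plexins such as the Plxna1 product. Sema4d is a membrane-bound semaphorin known from lymphocytes, and neuropilins also bind vascular endothelial growth factors. Outside the nervous system, these families are known for guiding vessels and airway branching in the developing lung.

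The 17 libraries each came from the passage 1 lung fibroblast culture of a different mouse. All mice carried floxed Ephb4 alleles and a tamoxifen-inducible Cre under the Col1a2 promoter, so that deletion was aimed at Col1a2-expressing cells. Ephb4 control mice received the vehicle, corn oil with ethanol, and Ephb4 CKO mice received 4-hydroxytamoxifen by intraperitoneal injection at 1 mg/day for 5 days from 4 weeks of age. At 6 weeks of age, PBS or bleomycin at 1.2 U/kg, a drug that injures the lung, was put into the trachea, and lungs were taken on day 14. There were 4 Ephb4 control PBS, 4 Ephb4 control bleomycin, 5 Ephb4 CKO PBS and 4 Ephb4 CKO bleomycin libraries. CKO and control mice carried the same alleles and differed in 4-hydroxytamoxifen, so drug and deletion cannot be told apart. Replicate numbers below only name libraries.

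The total count per library was between 66540022 and 120554468. The labels call all cultures fibroblasts, but the summed CPM (counts scaled to library size) of 14 fibroblast markers ran from 15.2 to 7715 in Ephb4 control PBS, from 6046 to 12334 in Ephb4 control bleomycin, from 36.0 to 2032 in Ephb4 CKO PBS and from 18.8 to 1693 in Ephb4 CKO bleomycin. The summed CPM of 19 macrophage markers ran from 10873 to 46702, from 1485 to 21229, from 24951 to 44625 and from 24715 to 45189 in the same order. Macrophage markers thus summed to more than fibroblast markers in all libraries but 1, Ephb4 control bleomycin replicate 1. No marker of either list was at 0 throughout a group. In 3 libraries the genes that mark sex went against the label: Ephb4 CKO bleomycin replicates 1 and 2 and Ephb4 control bleomycin replicate 2. The comparisons they enter are also given without them. These 3 lie in both genotypes after bleomycin. All libraries were kept in their labelled groups, and whether the genotype labels of these 3 hold was not tested. In bulk RNA, fewer cells of a type and less RNA per cell cannot be told apart. Ephb4 itself, the deleted gene, was at 38.5 ± 21.3 CPM (SD, n = 4) in Ephb4 control bleomycin and 9.64 ± 3.70 CPM (n = 4) in Ephb4 CKO bleomycin, with overlapping libraries (13.1 to 65.1 against 4.93 to 14.0 CPM). In the PBS groups Ephb4 was between 2.32 and 33.4 CPM in control and between 4.01 and 23.6 CPM in CKO libraries. The log2 fold change of Ephb4 for CKO against control was -1.998 ± 0.79 after bleomycin (SE, edgeR adjusted p = 0.220) and -0.73 ± 0.72 after PBS (adjusted p = 1.00), so its loss did not pass the test in either.

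Of the guidance genes abundant enough to be tested, 3 were lower in CKO than in control bleomycin libraries without overlap, as were 12.2% of all genes tested, and their promoters are shown so that they can be set beside those values. Each is 250 bases before to 50 bases after the RefSeq start site on GRCm38.p6, 5′ to 3′ on the gene's strand. Capitals mark matches on either strand to the GC box (GGGCGG) or the TATA box (TATAAA). Slit2 is at chr5:47982905-47983204 on the plus strand, Robo1 at chr16:72662899-72663198 on the plus strand and Sema3c at chr5:17574566-17574865 on the plus strand.
Slit2: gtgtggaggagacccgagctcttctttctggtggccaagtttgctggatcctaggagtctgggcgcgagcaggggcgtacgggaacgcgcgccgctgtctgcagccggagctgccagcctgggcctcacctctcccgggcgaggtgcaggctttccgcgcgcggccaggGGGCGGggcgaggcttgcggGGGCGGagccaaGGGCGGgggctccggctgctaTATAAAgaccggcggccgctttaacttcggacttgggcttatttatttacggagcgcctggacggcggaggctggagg
Robo1: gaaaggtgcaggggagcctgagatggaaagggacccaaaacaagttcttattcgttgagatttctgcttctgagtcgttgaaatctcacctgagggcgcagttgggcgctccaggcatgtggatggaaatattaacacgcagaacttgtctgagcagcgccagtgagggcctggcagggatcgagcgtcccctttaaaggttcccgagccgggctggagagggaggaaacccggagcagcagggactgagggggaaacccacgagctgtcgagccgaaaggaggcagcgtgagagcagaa
Sema3c: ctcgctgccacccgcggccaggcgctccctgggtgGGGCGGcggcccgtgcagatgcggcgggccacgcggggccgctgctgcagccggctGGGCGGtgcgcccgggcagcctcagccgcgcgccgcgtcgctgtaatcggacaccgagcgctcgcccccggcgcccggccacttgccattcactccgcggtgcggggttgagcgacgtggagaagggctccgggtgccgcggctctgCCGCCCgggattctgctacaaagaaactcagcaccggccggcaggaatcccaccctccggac

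The Slit2 window held 3 GC boxes and a TATA box, the Sema3c window held 3 GC boxes, and the Robo1 window held neither. Of the 32851 promoter windows of this length in the RefSeq table, 35.7% held a GC box and 13.6% a TATA box. None of the 3 windows held the AP-1 letters TGANTCA, found in 7.81% of all windows, or the TEAD letters GGAATG, found in 14.7%. The Robo1 and Sema3c windows lie inside the annotated spans of their genes, since RefSeq starts these transcripts downstream of the first GENCODE start. GC content was 68% for Slit2, 57% for Robo1 and 75.7% for Sema3c.

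Slit2 (ENSMUSG00000031558, chr5:47983138-48307733, plus strand) and Slit3 (ENSMUSG00000056427, chr11:35121224-35708507, plus strand) each carry a miR-218 hairpin in an intron on their own strand, and its products are shown because they lie inside the transcripts measured here. The Slit2 intron holds Mir218-1 and the Slit3 intron Mir218-2, and both give the same 5p product. The 3p products differ, as does their seed. Capitals mark the seed, bases 2 to 8, in the RefSeq sequences.
mmu-miR-218-5p: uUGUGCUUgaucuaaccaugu
mmu-miR-218-1-3p: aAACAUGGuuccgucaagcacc
mmu-miR-218-2-3p: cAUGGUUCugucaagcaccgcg
Total RNA libraries do not measure mature miRNAs, and the hairpin rows held at most 7 counts in a library for Mir218-1 and at most 3 for Mir218-2.

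Levels differed widely among the guidance genes. By median CPM per kilobase of exon over the 17 libraries, the order was Plxna1 (28.7), Nrp2 (16.0), Nrp1 (7.88), Sema4d (3.62), Sema3c (2.86), Slit2 (0.384), Sema3a (0.369), Robo1 (0.341), Slit3 (0.0972) and Robo2 (0.0758). The ranges over libraries of all neighbours in this order overlapped. The receptor and co-receptor genes Plxna1, Nrp2 and Nrp1 exceeded 10 CPM in all 17 libraries. Sema4d did so in 15 libraries, Sema3c in 13, Slit2 in 8, Robo1 and Sema3a in 7 each, Slit3 in 4 and Robo2 in 1. A gene was tested if at least 2 libraries exceeded 10 CPM. This filter kept 9 of the 10 guidance genes, and Robo2 was left out of the test.

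**Figure D1:**
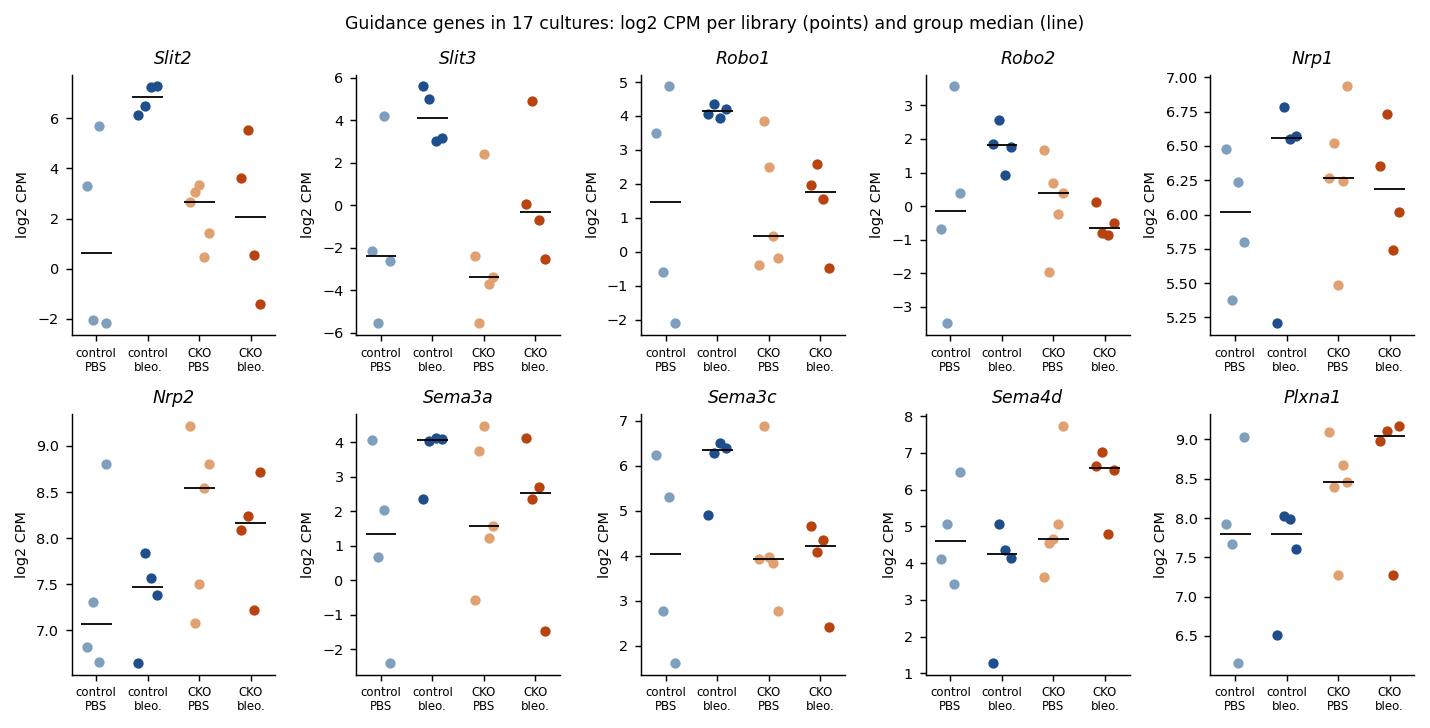
Log2 CPM (vertical axes, a different scale in each panel) of the 10 guidance genes in each of the 17 libraries (points) with group medians (lines), for Ephb4 control and CKO cultures after PBS or bleomycin. Slit2 is higher in all 4 Ephb4 control bleomycin libraries than in any other, a trait not counted over all genes. Plxna1 and Nrp2 overlap between all groups.

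Slit2 was the guidance gene with the clearest separation. In the Ephb4 control bleomycin libraries, replicates 1 to 4, it was at 69.8, 88.9, 154 and 155 CPM. In Ephb4 control PBS it was at 9.76, 0.225, 51.8 and 0.200 CPM, so 1 library, replicate 3, came near the bleomycin group while 2 libraries were almost empty. In Ephb4 CKO PBS it was at 6.28, 8.26, 10.0, 1.36 and 2.67 CPM, and in Ephb4 CKO bleomycin at 12.1, 46.9, 1.45 and 0.352 CPM. The 4 Ephb4 control bleomycin libraries were the 4 highest of all 17, a trait not counted over all genes. The next were Ephb4 control PBS replicate 3 and Ephb4 CKO bleomycin replicate 2, which also had the highest fibroblast marker sums of their groups (7715 and 1693 CPM).

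Slit3, the related ligand, was less even. It was at 48.4, 32.5, 8.19 and 8.97 CPM in Ephb4 control bleomycin and at 0.201, 0, 18.1 and 0.140 CPM in Ephb4 control PBS. In Ephb4 CKO PBS it was at 0.171, 0, 5.33, 0.0552 and 0.0743 CPM, and in Ephb4 CKO bleomycin at 1.02, 30.4, 0.590 and 0.153 CPM. The high libraries outside Ephb4 control bleomycin were again Ephb4 control PBS replicate 3 and Ephb4 CKO bleomycin replicate 2, and both overlapped that group. Within it, Slit3 was highest in replicates 1 and 2, where Slit2 was lowest.

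Robo1 (ENSMUSG00000022883, chr16:72308306-73046095, plus strand), a Slit receptor, had the smallest ratio of highest to lowest library of the 10 genes in Ephb4 control bleomycin, at 16.6, 20.5, 15.4 and 18.5 CPM. In Ephb4 control PBS it was at 11.3, 0.641, 29.2 and 0.210 CPM, with replicate 3 above all bleomycin libraries. In Ephb4 CKO PBS it was at 0.743, 14.3, 5.63, 1.35 and 0.854 CPM. In Ephb4 CKO bleomycin it was at 3.88, 6.03, 2.91 and 0.693 CPM, each below the lowest Ephb4 control bleomycin library. Robo2 (ENSMUSG00000052516, chr16:73891839-74411825, minus strand), its neighbour on chromosome 16, was much lower. It lay between 1.88 and 5.93 CPM in Ephb4 control bleomycin, between 0.529 and 1.08 CPM in Ephb4 CKO bleomycin and between 0.237 and 3.13 CPM in Ephb4 CKO PBS. In Ephb4 control PBS, replicate 3 was at 11.8 CPM, the only Robo2 value over 10 CPM, and the others at 0.603, 0.0675 and 1.30 CPM.

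Among the class 3 semaphorins, Sema3c (ENSMUSG00000028780, chr5:17574281-17730268, plus strand), known for its part in outflow tract and vessel development, was at 29.7, 78.0, 90.3 and 84.0 CPM in Ephb4 control bleomycin and at 25.2, 16.9, 20.4 and 5.32 CPM in Ephb4 CKO bleomycin, without overlap. In Ephb4 control PBS it was at 75.2, 6.78, 39.5 and 3.06 CPM. In Ephb4 CKO PBS, replicate 2 stood at 118 CPM against 15.3, 15.6, 14.2 and 6.82 CPM in the others. That library also held the highest epithelial marker sum of all 17 (2620 CPM, 9 markers), and Ephb4 control PBS replicate 1, the next for Sema3c in the PBS groups, held the second highest (2163 CPM). These 2 libraries also held the 2 highest mesothelial marker sums (602 and 403 CPM, 5 markers). The part of epithelial or mesothelial RNA in their Sema3c values was not tested.

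Sema3a (ENSMUSG00000028883, chr5:13125414-13602565, plus strand), a classical repellent of axons, was at 5.05, 16.4, 17.3 and 17.1 CPM in Ephb4 control bleomycin. It was at 16.6, 1.56, 4.09 and 0.170 CPM in Ephb4 control PBS, at 0.646, 13.4, 22.2, 2.32 and 2.97 CPM in Ephb4 CKO PBS, and at 17.2, 5.11, 6.51 and 0.341 CPM in Ephb4 CKO bleomycin. All groups thus had low and high libraries, and they overlapped.

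Sema4d (ENSMUSG00000021451, chr13:51685529-51793747, minus strand) lay the other way. It was at 2.42, 33.5, 20.5 and 17.5 CPM in Ephb4 control bleomycin and at 100, 130, 27.8 and 93.3 CPM in Ephb4 CKO bleomycin, where only replicate 3 fell within the range of the control libraries. In Ephb4 control PBS it was at 17.4, 33.5, 10.7 and 88.5 CPM, and in Ephb4 CKO PBS at 12.3, 23.2, 25.2, 33.3 and 213 CPM. The lowest Sema4d value of the series, in Ephb4 control bleomycin replicate 1, came with the lowest macrophage marker sum (1485 CPM), and the highest, in Ephb4 CKO PBS replicate 5, with a macrophage sum of 44625 CPM. The 2 libraries with higher macrophage sums were Ephb4 control PBS replicate 2 (46702 CPM) and Ephb4 CKO bleomycin replicate 3 (45189 CPM). They held Sema4d at only 33.5 and 27.8 CPM. The summed CPM of 8 lymphocyte markers was also lowest (1.61) and highest (311) in the libraries lowest and highest for Sema4d. It was 84.2 and 52.6 in the 2 libraries with higher macrophage sums. Yet Ephb4 CKO PBS replicates 1 and 4 had lymphocyte sums of 230 and 248 CPM, with Sema4d at 12.3 and 33.3 CPM. Only 2 of the 8 passed the filter, and the part of either cell type in Sema4d was not tested.

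Plxna1 (ENSMUSG00000030084, chr6:89316314-89362620, minus strand), the plexin of the set, was at 91.1, 260, 253 and 195 CPM in Ephb4 control bleomycin and at 503, 553, 155 and 578 CPM in Ephb4 CKO bleomycin. In Ephb4 control PBS it was at 243, 204, 71.4 and 523 CPM, and in Ephb4 CKO PBS at 547, 336, 155, 410 and 351 CPM. The low libraries were those of high fibroblast marker sum in each PBS group, replicate 3 in both. The bleomycin groups differed from this. In Ephb4 CKO bleomycin, replicate 3 had a fibroblast sum of only 230 CPM, and replicate 2, at 553 CPM of Plxna1, had the highest (1693 CPM). In Ephb4 control bleomycin, replicate 2 was highest for both Plxna1 and the fibroblast sum (12334 CPM). Plxna1 shares exon sequence with an antisense gene, Gm26811, but reads were aligned by strand, and that gene was at most at 0.402 CPM in any library.

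Nrp2 (ENSMUSG00000025969, chr1:62703285-62818695, plus strand) was at 100.4, 229, 189 and 167 CPM in Ephb4 control bleomycin and at 272, 303, 149 and 422 CPM in Ephb4 CKO bleomycin. It was at 113, 158, 101 and 447 CPM in Ephb4 control PBS and at 596, 135, 181, 372 and 448 CPM in Ephb4 CKO PBS. As with Plxna1, all groups overlapped, and Ephb4 control PBS replicate 4 and Ephb4 CKO PBS replicate 1 were the highest of their groups for both genes. Nrp1 (ENSMUSG00000025810, chr8:128358604-128503363, plus strand) was the steadiest guidance gene, between 36.9 and 122 CPM over all 17 libraries. Its group means were 65.5 ± 21.1 (SD, n = 4), 84.0 ± 32.2 (n = 4), 82.4 ± 28.1 (n = 5) and 76.6 ± 23.0 CPM (n = 4) in Ephb4 control PBS, Ephb4 control bleomycin, Ephb4 CKO PBS and Ephb4 CKO bleomycin.

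Bleomycin against PBS in Ephb4 control cultures asked how injury changed the cultures with Ephb4 intact. Slit2 had a mean of 117 ± 43.8 CPM after bleomycin against 15.5 ± 24.6 after PBS (SD, n = 4 each), a log2 fold change of 2.91 ± 1.51 (SE). Slit3 followed at 2.41 ± 2.13, Sema3a at 1.32 ± 1.23, Sema3c at 1.18 ± 0.96, Robo1 at 0.78 ± 1.18 and Nrp1 at 0.36 ± 0.36. The values for Nrp2 (-0.26 ± 0.53), Plxna1 (-0.38 ± 0.55) and Sema4d (-1.02 ± 0.93) were below 0. None of the 9 guidance genes tested passed edgeR's quasi-likelihood test at an adjusted p of 0.05, nor did any of the 10481 genes (0%). At an unadjusted p under 0.05, 0 of the 9 passed against 14.3% of all genes. DESeq2, which called 166 genes (1.58%), called none of the 9 and placed 1, Slit2, under an unadjusted p of 0.05 against 17.9% of all genes. For Slit2, edgeR's adjusted p was 0.384. Its groups did not overlap, as was so for 5.72% of all genes tested in the same direction, and for none of the other 8. None of the 9 was lower without overlap, against 3.2% of all genes.

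The fitted Slit2 and Slit3 differences were larger without Ephb4 control PBS replicate 3, which had a fibroblast marker sum of 7715 CPM against 15.2 to 154 CPM in the other 3 PBS libraries. Without it, the log2 fold change of Slit2 was 5.14 ± 1.73 (edgeR adjusted p = 0.105), of Slit3 7.79 ± 2.69 (adjusted p = 0.110) and of Robo1 2.17 ± 1.29 (adjusted p = 0.314). The other 6 kept their sign, with Plxna1 at -0.66 and Sema4d at -1.28. Without Ephb4 control PBS replicate 4, the highest PBS control library for Nrp2, Sema4d and Plxna1, these 3 were at 0.46, -0.15 and 0.21, and only Sema4d kept its sign. With the 3 libraries of mismatched sex genes left out, the values were 3.02 for Slit2, 2.24 for Slit3, 0.71 for Robo1, 0.21 for Nrp1, -0.41 for Nrp2, 1.25 for Sema3a, 1.14 for Sema3c, -1.46 for Sema4d and -0.51 for Plxna1, each of the same sign as with them. The table's columns form 2 alphabetical stretches, here called column runs. Within the first and the second, Slit2 had a difference of mean log2 CPM of 5.04 and 6.14, Robo1 of 2.15 and 3.31, and Sema3c of 2.30 and 1.77 (2 libraries per group, no test). Sema4d (0.35 and -2.47), Plxna1 (0.90 and -1.23), Nrp1 (0.87 and -0.26) and Nrp2 (0.63 and -0.70) had opposite signs in the 2 runs. All Ephb4 control bleomycin mice had numbers of the 12 series, as did 1 Ephb4 control PBS mouse. Within that series the Slit2 difference was 3.49 and that of Sema3c -0.22 (4 libraries against 1). With the number series as a covariate the fitted Slit2 value was 1.33.

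**Figure D2:**
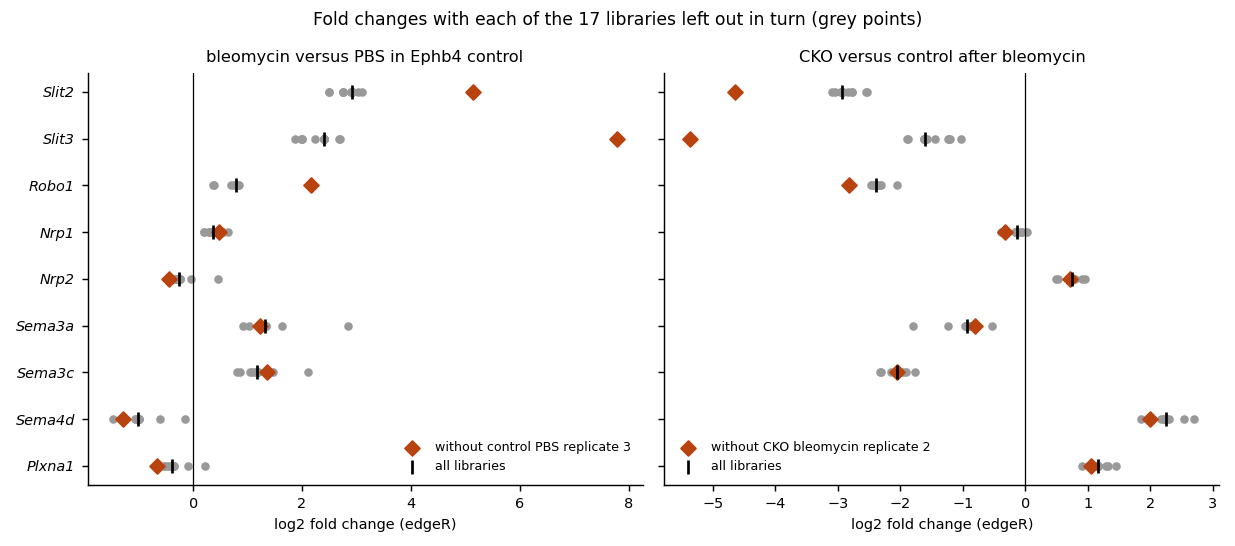
Log2 fold changes from edgeR (horizontal axes) for the 9 guidance genes tested, with all libraries (black bars) and with each of the 17 libraries left out in turn (grey points), for bleomycin versus PBS in Ephb4 control (left) and CKO versus control after bleomycin (right). Diamonds mark the fits without Ephb4 control PBS replicate 3 (left) and without Ephb4 CKO bleomycin replicate 2 (right), where Slit2 reached 5.14 and -4.65.

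How CKO cultures differed after bleomycin was addressed by comparing Ephb4 CKO with control bleomycin cultures. Slit2 averaged 15.2 ± 21.8 CPM in CKO against 117 ± 43.8 in control (SD, n = 4 each), a log2 fold change of -2.94 ± 1.51 (SE). Robo1 averaged 3.38 ± 2.21 against 17.7 ± 2.24 CPM, with a log2 fold change of -2.39 ± 1.24, and Sema3c 17.0 ± 8.48 against 70.5 ± 27.7 CPM, with -2.06 ± 0.99. Sema4d averaged 87.8 ± 43.1 against 18.5 ± 12.8 CPM (2.25 ± 0.96) and Plxna1 447 ± 197 against 200 ± 78.1 CPM (1.16 ± 0.55). The receptor and its ligand thus lay on the same side of 0, and the plexin lay opposite to both class 3 ligands. Slit3 had -1.61 ± 2.07, Sema3a -0.94 ± 1.22, Nrp1 -0.13 ± 0.36 and Nrp2 0.74 ± 0.53.

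None of these values passed either. edgeR called 0 of the 9 guidance genes and 0 of 10481 genes (0%), and 1 of the 9, Sema4d (edgeR adjusted p = 0.228), had an unadjusted p under 0.05 against 20.2% of all genes. Plxna1, Sema3c, Slit2 and Robo1 followed, with edgeR adjusted p values of 0.250, 0.250, 0.268 and 0.270. DESeq2 called 399 genes (3.81%), none of them among the 9, with 5 of the 9 at an unadjusted p under 0.05 against 26% of all genes. With the column run as a covariate, DESeq2 gave Sema4d its smallest adjusted p of any fit, 0.083, and gave no p for Robo1 and Sema3c. Of the 9, Slit2, Robo1 and Sema3c were lower in CKO without overlap, as were 12.2% of all genes tested. None was higher without overlap, against 11% of all genes. Robo2 also did not overlap, and in the fits that retained it its log2 fold change was -2.39 ± 1.08 (edgeR adjusted p = 0.315, filterByExpr) and -2.40 ± 1.06 (adjusted p = 0.455, no filter).

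**Figure D3:**
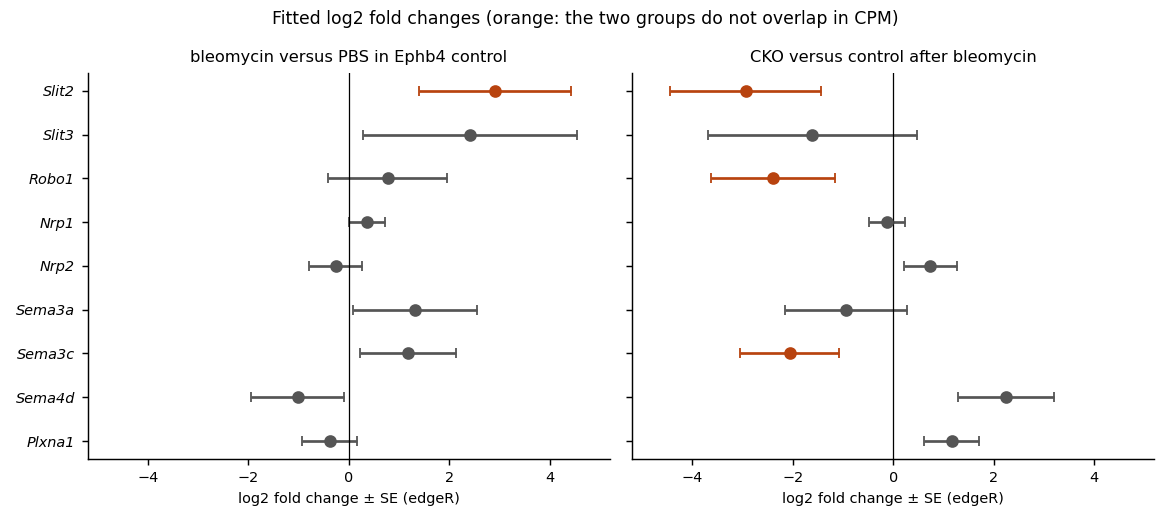
Fitted log2 fold changes (horizontal axes) with standard errors (bars) of the 9 guidance genes tested, for bleomycin versus PBS in Ephb4 control (left) and CKO versus control after bleomycin (right). Orange marks genes whose 2 groups do not overlap in CPM, which are Slit2 on the left (2.91) and Slit2, Robo1 and Sema3c on the right (-2.94, -2.39 and -2.06).

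Leaving out Ephb4 CKO bleomycin replicate 2, the CKO library with the highest Slit2, gave Slit2 a value of -4.65 ± 1.75 (edgeR adjusted p = 0.182) and Slit3 one of -5.37 ± 2.56 (adjusted p = 0.228). With the 3 libraries of mismatched sex genes left out, Slit2 was at -7.17 and Slit3 at -5.92, Robo1 at -3.26, Sema3c at -2.44, Sema3a at -1.98, Nrp1 at -0.39, Nrp2 at 0.87, Sema4d at 2.13 and Plxna1 at 0.99. That fit kept only replicates 3 and 4 of Ephb4 CKO bleomycin, both of number series 11, whereas all Ephb4 control bleomycin mice were of series 12. Genotype and number series cannot be told apart there. Within the 2 column runs the differences of mean log2 CPM were -7.31 and -2.12 for Slit2, -3.75 and -1.72 for Robo1, -2.95 and -1.33 for Sema3c, 1.07 and 4.01 for Sema4d, and 0.41 and 1.79 for Plxna1. Among mice of number series 12, with 2 CKO and 4 control libraries, they were -2.21, -1.86, -1.65, 3.12 and 1.51 in the same order. These were the 5 guidance genes with the smallest edgeR p in this comparison. The subsets are parts of the libraries that gave those p values, so a kept sign is no separate support. All 5 kept their sign in each of these subsets. Slit3 and Nrp2 also did. Nrp1 instead was at 0.66 within run 2 and 0.27 within series 12, and Sema3a at 0.0075 within run 2.

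The marker RNA of the cultures moved with both comparisons. All 13 fibroblast markers tested had values above 0 for bleomycin against PBS in control cultures (median log2 fold change 2.66) and below 0 for CKO against control after bleomycin (median -3.52). Of the 18 macrophage markers tested, 17 were below 0 in the first (median -0.93) and all 18 above 0 in the second (median 1.23). None was called by edgeR in either comparison. The 6 smooth muscle and pericyte markers tested lay like the fibroblast markers (medians 3.65 and -2.38), with summed CPM of 2722 to 3917 in Ephb4 control bleomycin and at most 1902 in any other library. The 4 Ephb4 control bleomycin libraries and Ephb4 control PBS replicate 3 had the 5 highest fibroblast marker sums, and the same 5 held the 5 highest Slit2 and the 5 highest Robo1 values. The next 2 libraries for Robo1 were Ephb4 CKO PBS replicate 2 and Ephb4 control PBS replicate 1. They had fibroblast sums of only 52.6 and 154 CPM, with the 2 highest epithelial and the 2 highest mesothelial sums. With a fibroblast score as a covariate, the CKO against control values after bleomycin were -0.59 for Slit2, -0.68 for Robo1, -1.71 for Sema3c, 1.78 for Sema4d and 0.30 for Plxna1. With a macrophage score they were -1.88, -0.91, -1.27, 0.75 and 0.42. The fibroblast score turned the sign of Slit3 (1.64), Sema3a (0.60) and Nrp1 (0.081) there, and of Slit3 (-0.59), Robo1 (-0.46), Sema3a (-0.56), Nrp2 (0.75) and Plxna1 (0.93) for bleomycin against PBS in control cultures. The part of cell makeup in the guidance gene differences was not tested beyond these values, since the scores differ between the groups.

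**Figure D4:**
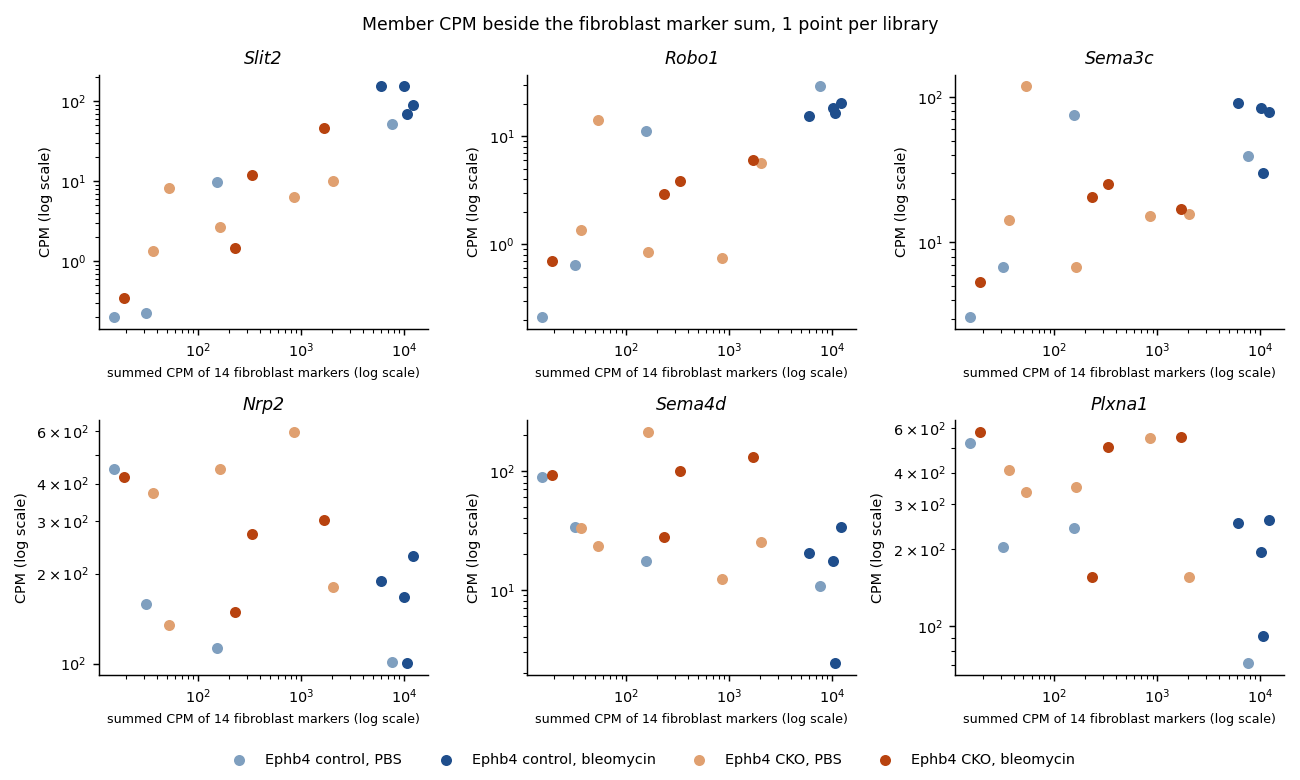
CPM of 6 guidance genes (vertical axes, log scale) beside the summed CPM of 14 fibroblast markers (horizontal axes, log scale) in the 17 libraries, coloured by group. The Ephb4 control bleomycin libraries sit at 6046 CPM of fibroblast markers or more, with Ephb4 control PBS replicate 3 beside them at 7715, and hold the highest Slit2.

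Ephb4 CKO against control cultures after PBS showed no guidance gene apart. The log2 fold changes ran from -2.03 ± 1.95 for Slit3 to 0.76 ± 0.51 for Nrp2, and all 9 overlapped between groups, where 0.248% of all genes did not. edgeR called 0 of the 9 and 0 of all genes (0%), 0 of the 9 had an unadjusted p under 0.05 against 1.99% of all genes, and DESeq2 called 1 gene (0.00954%), which was none of the 9. Slit2 was at -1.44 ± 1.34 and Robo1 at -1.18 ± 1.12. Without Ephb4 control PBS replicate 3, Slit2 was at 0.78, Slit3 at 3.31 and Robo1 at 0.21, so the sign of these values rested on that library.

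Bleomycin against PBS within Ephb4 CKO cultures likewise gave overlapping groups for all 9, where 0.0859% of all genes did not overlap. The values ran from -1.01 ± 0.92 for Sema3c to 2.83 ± 1.998 for Slit3, with Slit2 at 1.41 ± 1.34, Sema4d at 0.51 ± 0.87 and Robo1 at -0.44 ± 1.13. edgeR called 0 of the 9 and 0 of all genes (0%), 0 of the 9 had an unadjusted p under 0.05 against 0.964% of all genes, and DESeq2 called 1 gene (0.00954%) outside the 9. Without Ephb4 CKO bleomycin replicate 2 the Slit2 value was -0.30 and the Slit3 value -0.94. Without Ephb4 CKO PBS replicate 5, the highest Sema4d library, Sema4d was at 1.90 (edgeR adjusted p = 1.00). With the 3 libraries of mismatched sex genes left out, the values were -2.71 for Slit2, -1.62 for Slit3, -1.40 for Robo1, -1.47 for Sema3c, -1.32 for Sema3a, -0.52 for Nrp1, -0.31 for Nrp2, -0.062 for Sema4d and -0.0083 for Plxna1. Only replicates 3 and 4 of Ephb4 CKO bleomycin were left in that fit, both of number series 11.

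Whether bleomycin acted differently in CKO and control cultures was tested by the interaction of genotype and bleomycin. Sema3c (-2.19 ± 1.33), Sema3a (-1.51 ± 1.68), Slit2 (-1.50 ± 1.96) and Robo1 (-1.21 ± 1.63) had values below 0, and Sema4d (1.53 ± 1.27) and Plxna1 (0.70 ± 0.75) above. None passed. The smallest edgeR adjusted p among the 9 was 0.916, for Sema3c and Sema4d, and 0 of the 9 had an unadjusted p under 0.05 against 3.46% of all genes. edgeR and DESeq2 called 0 genes (0%). The Sema4d value was between 0.66, without Ephb4 control PBS replicate 4, and 2.92, without Ephb4 CKO PBS replicate 5 (edgeR adjusted p = 0.838). With the 3 libraries of mismatched sex genes left out, Slit2 was at -5.73 and Sema3c at -2.61 (edgeR adjusted p = 0.760 for both). Such a fit held only replicates 3 and 4 of Ephb4 CKO bleomycin, of number series 11, while all Ephb4 control bleomycin mice were of series 12. A different response of a guidance gene in the CKO cultures was not detected.

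A wider list of 69 guidance genes, written from general knowledge, set the 10 in context, and 41 of them were abundant enough to be tested. None was called in any comparison by edgeR or DESeq2. For bleomycin against PBS in Ephb4 control, 3 of the 41 had an unadjusted p under 0.05 with a higher level (6.28% of all genes) and 1 with a lower one (7.98%), and for CKO against control after bleomycin 3 were higher (11%) and 6 lower (9.18%). The median log2 fold change of the 41 was 0.17 in the first, where the median of all genes was -0.06, and -0.67 in the second, where that of all genes was 0.01. For the 9 guidance genes tested the medians were 0.78 and -0.94. Relatives named below were picked mainly for an unadjusted p under 0.05, which favours groups without overlap. How many of the 41 did not overlap was not counted.

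Among 9 other semaphorins tested, Sema4a, a membrane semaphorin, had the highest level per length, at 43.1 ± 17.6 CPM in Ephb4 CKO bleomycin against 20.9 ± 7.75 in Ephb4 control bleomycin (log2 fold change 1.05 ± 0.45, edgeR adjusted p = 0.228). It lay on the same side as Sema4d. Sema5a, a membrane semaphorin with thrombospondin repeats, was at 1.89 ± 1.29 against 26.8 ± 9.41 CPM (-3.82 ± 1.53, edgeR adjusted p = 0.220), without overlap. Sema4c was at 4.75 ± 2.39 against 14.8 ± 6.89 CPM (-1.64 ± 0.75, edgeR adjusted p = 0.241), also without overlap. In that comparison 12.2% of all genes tested were lower without overlap. Sema3d, a secreted relative of Sema3a, had the largest semaphorin value for bleomycin against PBS in control cultures, 3.42 ± 1.39 (edgeR adjusted p = 0.323), from 1.06 ± 1.20 to 11.3 ± 9.70 CPM.

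Among the 6 other plexins tested, Plxnb2 had the highest level per length. It was at 183 to 213 CPM in Ephb4 control bleomycin and 94.2 to 150 CPM in Ephb4 control PBS, without overlap (log2 fold change 0.67 ± 0.26, edgeR adjusted p = 0.320). Without overlap, 5.72% of all genes tested were higher in that comparison. Plxnd1, the receptor of Sema3e in vessels, was at 114 ± 67.2 CPM in Ephb4 CKO bleomycin against 57.8 ± 21.9 in Ephb4 control bleomycin (0.98 ± 0.40, edgeR adjusted p = 0.223). Plxna2, the relative of Plxna1, had 0.61 ± 0.27 there (edgeR adjusted p = 0.231). Both lay above 0, like Plxna1, whereas Plxnb2 was at -0.19 in that comparison.

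Of 12 genes for proteins that act downstream of plexins, Dpysl2, a collapsin response mediator, had the highest level per length and was at 112 ± 16.5 CPM in Ephb4 control bleomycin against 63.4 ± 31.9 after PBS (0.82 ± 0.38, edgeR adjusted p = 0.349). Dpysl3, of the same family, was between 109 and 212 CPM in Ephb4 control bleomycin and between 3.62 and 45.2 CPM in Ephb4 CKO bleomycin (-3.03 ± 1.20, edgeR adjusted p = 0.220). Fyn, a Src-family kinase, had -0.72 ± 0.32 in that comparison (edgeR adjusted p = 0.233), and neither gene overlapped between the 2 groups. So it was for 12.2% of all genes tested, in the same direction. For the plexin effectors, 10 of 12 values were above 0 after bleomycin in control cultures and 9 of 12 below 0 for CKO against control. Over the whole wider list these were 23 of 41 and 27 of 41. The other semaphorins had 3 of 9 and 6 of 9, the other plexins 2 of 6 and 3 of 6, and the netrin list 4 of 5 and 4 of 5. The vascular endothelial growth factor list had 3 of 7 and 4 of 7, and the Slit and Robo relatives 1 of 2 and 1 of 2. Signs were not counted over all genes, whose medians were -0.06 and 0.01.

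Netrins, RGMs and their receptors had 5 genes tested. Ntn4, a netrin of basement membranes, was at 4.99 ± 1.89 CPM in Ephb4 CKO bleomycin against 13.9 ± 3.18 in Ephb4 control bleomycin (-1.48 ± 0.67, edgeR adjusted p = 0.236), without overlap. Unc5b, a netrin receptor and the most abundant of the 5 per length, had -1.63 ± 1.01 (edgeR adjusted p = 0.343). Among 7 vascular endothelial growth factor genes and receptors, which share neuropilins as co-receptors, Pgf was at 3.26 ± 1.89 against 19.9 ± 4.65 CPM (-2.61 ± 1.00, edgeR adjusted p = 0.218), without overlap. Like Ntn4 and Pgf, 12.2% of all genes tested were lower without overlap in that comparison. Flt1, a receptor of this family, was lower after bleomycin in control cultures without overlap, as were 3.2% of all genes tested. It was at 20.3 ± 9.73 against 69.2 ± 29.8 CPM (-1.77 ± 0.59, edgeR adjusted p = 0.300). Vegfa, the most abundant per length, had -0.01 ± 0.91 there. Of the Slit and Robo relatives 2 of 6 were tested, and Srgap2, an intracellular Robo partner, had the higher level per length, with -0.06 ± 0.27 and 0.26 ± 0.27 in the 2 bleomycin comparisons.

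**Figure D5:**
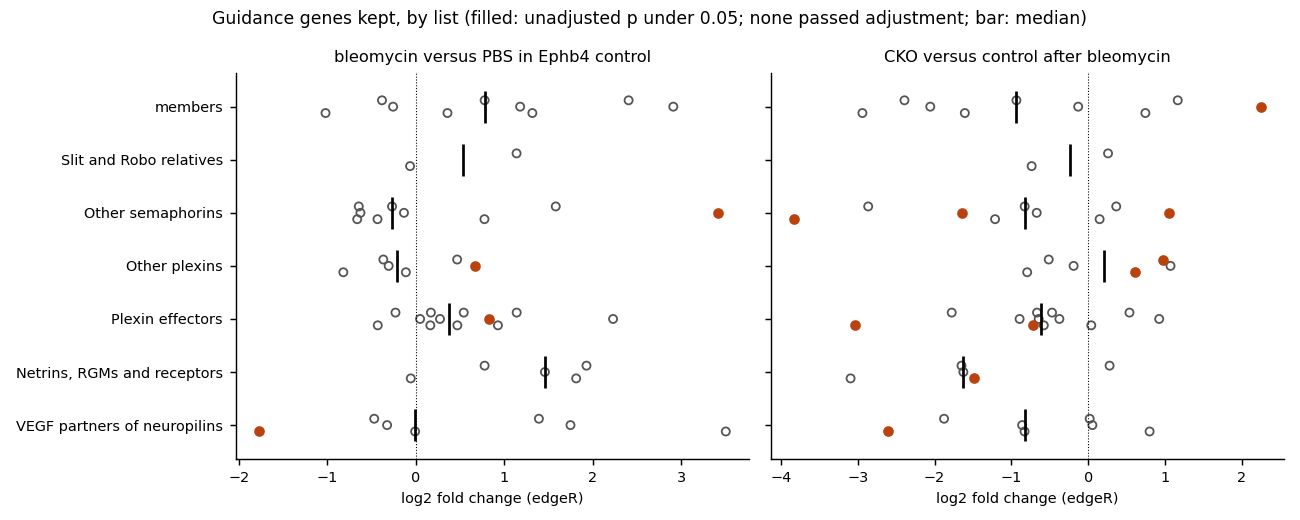
Log2 fold changes from edgeR (horizontal axes) of the 9 guidance genes tested (members) and of the 41 other guidance genes tested, by list, for bleomycin versus PBS in Ephb4 control (left) and CKO versus control after bleomycin (right). Filled points have an unadjusted p under 0.05 (0 of 9 and 4 of 41 on the left, 1 of 9 and 9 of 41 on the right), bars are medians, and none passed adjustment.

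The genes most like each guidance gene were found by Pearson's r of log2 CPM over the 17 libraries, which share group, depth and cell makeup, so the values are a description. Slit2 was most like Vgll3 (0.98) and Ncam1 (0.98), Slit3 like Tgfbr3 (0.98) and Sod3 (0.96), and Robo1 like Nr2f2 (0.99) and Dlc1 (0.99). Sema3c was most like Rin1 (0.95) and Ptprk (0.95), and Sema3a like Ltbp1 (0.87). On the other side, Nrp2 was most like Mfsd1 (0.96), Plxna1 like Zfand2a (0.97) and Ahnak2 (0.96), and Sema4d like Cd300lb (0.95) and Gtpbp8 (0.94). Nrp1 was most like Pik3r1 (0.92) and Efr3a (0.90).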

How the data were processed

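The authors trimmed the paired 75-base reads with Cutadapt, aligned them to GRCm38 with HISAT2 2.1.0 using strand, and made the deposited whole-number counts per gene from StringTie coverage, without normalization. Counts follow how StringTie divided coverage between overlapping transcripts. Here, genes over 10 CPM in at least 2 libraries were kept (10481 of 55421), TMM library sizes were computed, and edgeR 4.0.16 (R 4.3.3) fitted 1 mean per group over all 17 libraries by quasi-likelihood, without covariates, with Benjamini-Hochberg adjustment over all genes kept at 0.05. CPM uses TMM library sizes; log2 CPM adds a prior count of 2. The common dispersion was 0.311. Each library is 1 mouse, so p values measure the spread between mice. The procedure was tested on simulated counts. The study's batch numbers are not given in the sources used here; the 2 sorted runs of table columns (8 and 9 libraries) and the animals' number series were used instead. Annotation was GENCODE M21; promoters and miRNAs were from RefSeq. Named genes: the 10, listed relatives with an unadjusted p under 0.05 in either main comparison (at most 4 per list and comparison), each list's highest gene per kilobase, and the 2 most alike genes, of which some are not reported here. Genes and lists were chosen with earlier results of these data known. Alternatives were DESeq2 1.42.0, RLE library sizes, 2 other filters, covariates (column run, sex, number series, fibroblast or macrophage score), and leaving out libraries. Within-run and within-series values were added after seeing the data.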

Additional observations from a re-analysis of the deposited data

Results flagged for a closer look

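In 40 combinations of a guidance gene and a group, 5 values, from 3 libraries, lay far from the rest of their group on the log2 CPM scale by Dixon's test at 95%, which chance flags in about 1 of 20 groups. Of these values, 3 were the lowest library of Ephb4 control bleomycin, replicate 1, for Nrp1 (36.9 CPM), Sema3a (5.05 CPM) and Sema3c (29.7 CPM). That library had the lowest macrophage marker sum of all 17 (1485 CPM). Sema3c was flagged for the highest library of Ephb4 CKO PBS, replicate 2 (118 CPM). This library held the highest epithelial and mesothelial marker sums (2620 and 602 CPM). Plxna1 was flagged for the lowest library of Ephb4 CKO bleomycin, replicate 3 (155 CPM), which had the highest macrophage marker sum of its group (45189 CPM). What set these libraries apart was not tested.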

How the results depend on the processing

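The deposited counts were fitted in 11 other ways and with each of the 17 libraries left out in turn. No guidance gene was called in any of these fits, and the smallest adjusted p was 0.083 (Sema4d, DESeq2 with the column run). With all libraries or without the 3 against their sex label, edgeR called no gene in any comparison, whereas DESeq2 called 166 for bleomycin against PBS in Ephb4 control, 399 for CKO against control after bleomycin, 1 for CKO against control after PBS and 1 for bleomycin against PBS in Ephb4 CKO. DESeq2 with the column run called 231, 387, 0 and 1 in the same order and 1 for the interaction. Of 525 values under other settings 485 kept their sign and 40 reversed. Of 765 with a library left out, 731 kept it and 34 reversed. No value with an adjusted p crossed the threshold. The within-run and within-series values among the 525 had no test, and DESeq2 gave no p for 10 values. The cause of the reversals was not tested.

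With the fibroblast score, the reversed log2 fold changes for bleomycin against PBS in Ephb4 control were -0.59 for Slit3, -0.46 for Robo1, 0.75 for Nrp2, -0.56 for Sema3a and 0.93 for Plxna1. For CKO against control they were 1.64 for Slit3, 0.081 for Nrp1 and 0.60 for Sema3a after bleomycin, and 1.41 for Slit2 and 0.50 for Robo1 after PBS. Slit2 was at -1.34 for bleomycin in CKO and Plxna1 at -0.30 for the interaction. With the macrophage score they were 0.42 for Nrp2, 0.22 for Sema4d and 0.23 for Plxna1 for bleomycin in control, 0.50 for Slit3 and -0.080 for Nrp2 for CKO against control after bleomycin, 0.088 for Slit2, 0.97 for Slit3, 0.0082 for Robo1 and -0.027 for Sema4d for CKO against control after PBS, 0.18 for Robo1 for bleomycin in CKO and -0.47 for Slit3 for the interaction. With the number series they were -0.19 for Robo1 for bleomycin in control, 0.044 for Nrp1 for CKO against control after bleomycin and -0.25 for Sema3c after PBS. With sex they were 0.10 for Slit3 and -0.38 for Sema3c for CKO against control after PBS and -2.18 for Slit3 for the interaction. With the column run Sema3c was at -0.092 (DESeq2) and -0.094 (edgeR) for CKO against control after PBS. Without the 3 libraries against their sex label, Slit2 was at -2.71, Slit3 at -1.62, Sema4d at -0.062 and Plxna1 at -0.0083 for bleomycin in CKO, and Slit3 at -3.86 and Nrp2 at 0.099 for the interaction. Within column run 1, Sema4d was at 0.35 and Plxna1 at 0.90 for bleomycin in control, and within number series 12 Sema3c was at -0.22. Of these subset values, only those of Slit2, Robo1, Sema3c, Sema4d and Plxna1 entered the counts above. Outside them, for bleomycin in control, Nrp2 was reversed within run 1 (0.63) and series 12 (0.54). Nrp1 was so within run 2 (-0.26) and series 12 (-0.20), and Sema3a within series 12 (-0.41). For CKO against control after bleomycin, Nrp1 was reversed within run 2 (0.66) and series 12 (0.27), and Sema3a within run 2 (0.0075).

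With 1 library left out, edgeR called 0 to 2 genes for bleomycin in control (2 without Ephb4 CKO bleomycin replicate 2) and 0 to 1 for CKO against control after bleomycin (1 without Ephb4 control bleomycin replicate 2). The ranges that crossed 0 were -0.46 to 0.46 for Nrp2 and -0.66 to 0.21 for Plxna1 for bleomycin in control, and -0.40 to 0.026 for Nrp1 for CKO against control after bleomycin. For CKO against control after PBS they were -1.87 to 0.78 for Slit2, -5.90 to 3.31 for Slit3, -2.27 to 0.21 for Robo1, -0.21 to 2.10 for Sema3a, -1.26 to 1.05 for Sema3c and -0.67 to 1.58 for Sema4d. For bleomycin in CKO they were -0.30 to 1.82 for Slit2, -0.94 to 6.68 for Slit3, -0.87 to 0.66 for Robo1, -0.31 to 0.081 for Nrp1, -0.52 to 0.0076 for Nrp2, -1.06 to 0.60 for Sema3a and -1.27 to 0.39 for Sema3c. For the interaction they were -4.88 to 4.28 for Slit3 and -0.74 to 0.24 for Nrp2. No paired analysis was possible because the labels give no replicate numbers. Animal numbers in different groups share leading digits, but the labels do not say that these mark a litter or cage, and only the number series was used, as a covariate.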
